A study of Mus musculus with 16 samples.

Results

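Cytochrome P450 enzymes are heme proteins that add oxygen to lipids, hormones and foreign compounds. Each family and subfamily is named by a number and a letter (Cyp2b, Cyp4f). In the epidermis they hydroxylate the fatty acids of the barrier lipids, remove a methyl group in cholesterol synthesis, break down retinoic acid, process vitamin D, and oxidise arachidonic acid and pollutants. The P450 genes were taken as the rows of the count table whose Entrez identifier maps to a mouse symbol of the form Cyp, number, letter and number, together with Cyp51. This rule used no measured value and gave 95 genes of 27179 rows. Poly(A) RNA was sequenced from bulk epidermal cells of aged C57BL/6J mice, 73 weeks old when treatment began, which were injected into the peritoneum 3 times a week for 12 weeks. The anti-IL-17A/F mice (n = 4) received a mixture of antibodies that block IL-17A and IL-17F, inflammatory cytokines, and the control IgG mice (n = 4) received a control IgG1. No untreated and no younger mice are in this comparison, which therefore addresses how P450 expression in aged epidermis differed when IL-17A and IL-17F were blocked. The antibodies reach the whole animal, not only the skin.

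Each mouse contributed 1 library, sequenced in 2 batches that were added together, and totals were 42816157 to 53721153 counts. Levels are counts scaled to the library total (CPM), and comparisons between genes use CPM per kilobase of exon. Values per mouse are listed in the order of mice 1 to 4 of each group, and a difference followed by ± is a log2 fold change, anti-IL-17A/F over control IgG, with its standard error (SE). Keratinocyte genes dominated, with 6 basal markers summing to 20928 to 23639 CPM in anti-IL-17A/F mice, against 19895 to 26168 CPM in control IgG mice. Markers of sebocytes, the lipid-producing cells of the sebaceous gland, were also abundant. The 10 sebocyte markers summed to 7502 to 10910 CPM in anti-IL-17A/F mice, against 8721 to 15744 CPM in control IgG mice, where mice 1 and 2 held the highest sums (13940 and 15744 CPM). None of the 10 was at 0, and 9 of the 10 were lower in anti-IL-17A/F mice, with none called. Scd1 alone made up most of the sum, averaging 6884 CPM with anti-IL-17A/F and 8712 CPM with control IgG. Awat2 went the other way, with a log2 fold change of 0.14. The 5 liver markers, added because many P450 enzymes are best known from liver, summed to 1.28 to 2.49 CPM in anti-IL-17A/F mice and 0.802 to 1.35 CPM in control IgG mice, and 2 of them had no count. In bulk samples fewer cells of a type and less RNA per cell cannot be told apart.

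Of the 95 P450 genes, 40 passed the filter on low counts and were tested, 27 had between 1 and 66 counts over all mice and were not tested, and 28 had no count. With 404656455 counts in all, a count of 0 allows a level of up to 0.00742 CPM (3 counts), a limit that covers counting error only. None of the 40 tested genes was called by the quasi-likelihood test of edgeR at an adjusted p below 0.1, and 0% of the 16335 genes tested were called, with a smallest adjusted p of 0.984. DESeq2 and limma-voom also called 0 of the 40. At an unadjusted p below 0.05 there were 2 of 40 (Cyp8b1 and Cyp2j12, both lower), where the share over all genes was 4.03%, made up of 2.45% higher and 1.57% lower. In none of the 40 did the groups fail to overlap, where the share over all genes was 2.42%.

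The fold changes of the P450 genes leaned towards lower values in anti-IL-17A/F mice, but this count rested on single mice. Of the 40, 11 were higher and 29 were lower in anti-IL-17A/F mice, whereas 50.1% of all genes tested were higher. The median log2 fold change was -0.059, against 9.3e-05 over all genes. When control IgG mouse 1 was left out, 21 of 41 tested were higher and the median was 0.0024. When anti-IL-17A/F mouse 1 was left out, 18 of 41 were higher. The median coefficient of variation of the P450 genes within groups was 23.7%, against 9.31% over all genes, with no matching for level, and their median absolute log2 fold change was 0.13, against 0.071.

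**Figure D1:**
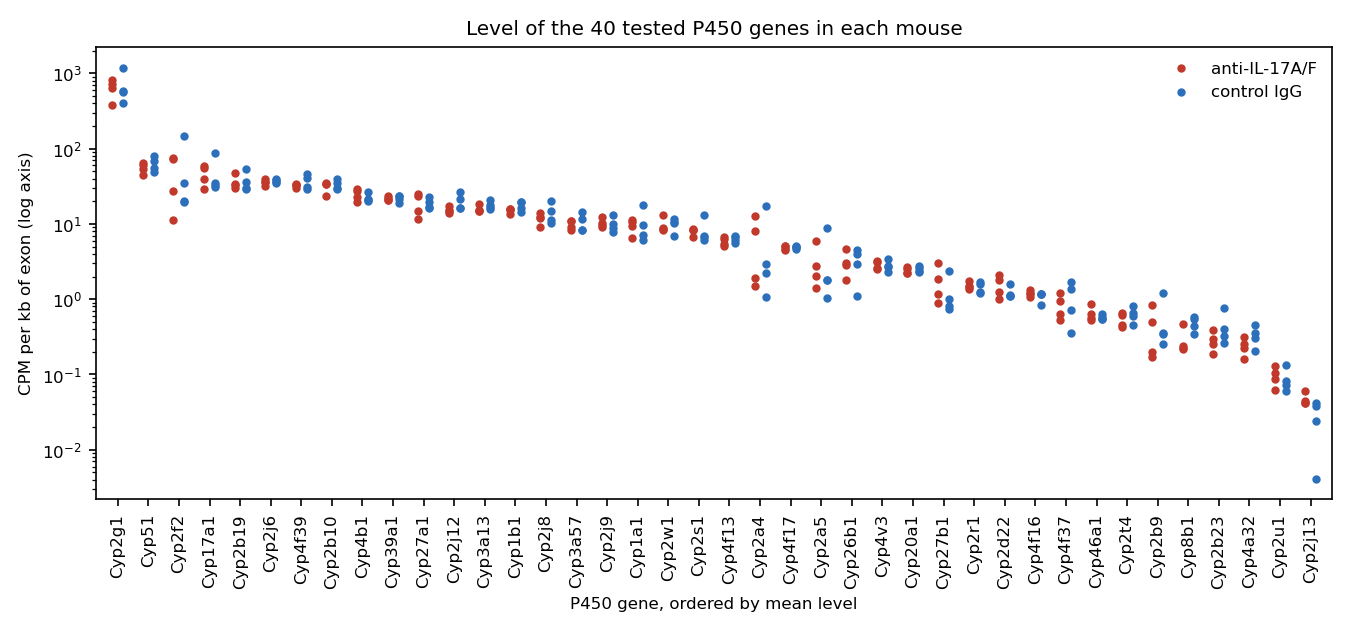
Level of each of the 40 tested P450 genes (CPM per kilobase of exon, log axis) in the 4 anti-IL-17A/F mice (red, left) and the 4 control IgG mice (blue, right), 1 point per mouse. Cyp2g1 stood above all other P450 genes in every mouse, and the points of the groups overlapped for each gene.

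A single gene, Cyp2g1, made up much of the P450 mRNA of the epidermis. Cyp2g1 (chr7:26808927-26821197, GRCm38), whose enzyme is known best from the olfactory mucosa, averaged 663 CPM per kilobase over the 8 mice and ranked 43rd by CPM among all genes. It held between 38.6% and 52.3% of the summed P450 CPM in anti-IL-17A/F mice, against 38.0% to 55.4% in control IgG mice. Its level was 821, 1386, 1762 and 1535 CPM in mice 1 to 4 given anti-IL-17A/F, against 2552, 1258, 1198 and 858 CPM in mice 1 to 4 given control IgG. Control IgG mouse 1 was highest and anti-IL-17A/F mouse 1 lowest, with the other 6 mice between. The means were 1376 ± 401 CPM in anti-IL-17A/F mice and 1467 ± 745 CPM in control IgG mice (SD, n = 4 each), a log2 fold change of -0.092 ± 0.34 (SE). The difference was smaller than the spread within either group (adjusted p = 0.992, edgeR), and the log2 fold change was 0.32 without control IgG mouse 1.

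The next genes on the scale per kilobase were more than 10 times lower. Cyp51, the sterol demethylase of cholesterol synthesis, averaged 59.5 CPM per kilobase, Cyp2f2 50.8, Cyp17a1 45.9, and both Cyp2b19 and Cyp2j6 36.6. Below them came Cyp4f39 (34.3), Cyp2b10 (32.4), Cyp4b1 (23.3), Cyp39a1 (21.8), Cyp27a1 (18.7), Cyp2j12 (17.7), Cyp3a13 (16.8), Cyp1b1 (16.2) and Cyp2j8 (13 CPM per kilobase). By family, the 47 family 2 genes grouped here (without Cyp2r1 and Cyp2s1, placed by role) held 75.2% of the P450 level per kilobase. Cyp2g1 alone held 56.5% of the P450 level per kilobase. The 7 genes of cholesterol, oxysterol and bile acid metabolism held 8.62%. The 17 family 4 genes held 6.30% and the 4 genes of the Cyp1 family and Cyp2s1 held 2.90%.

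A cluster of 13 Cyp2 genes on chromosome 7 (chr7:25802469-27158564, GRCm38) held 68.3% of the P450 level per kilobase, with 56.5% in Cyp2g1 alone. The cluster contains Cyp2g1, Cyp2f2, Cyp2s1, Cyp2t4, the Cyp2a genes and the Cyp2b genes. Of the 13, 10 were tested, and 8 of these 10 were highest in control IgG mouse 1. Over all 40 tested P450 genes, 13 (32.5%), of which 8 are in this cluster, were highest in that mouse, against 14.3% of all genes. Of the 40, 12 were lowest in anti-IL-17A/F mouse 1 (all genes 10.3%). Of the 10 cluster genes, 9 had a negative fold change, and none was called.

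**Figure D2:**
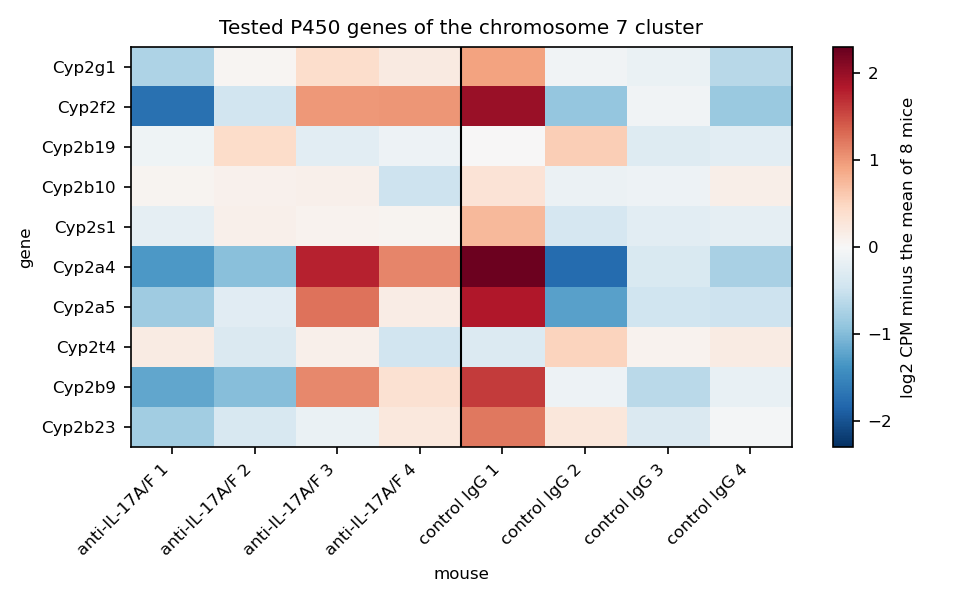
Tested P450 genes of the chromosome 7 cluster (rows) in each mouse (columns, anti-IL-17A/F left of the line, control IgG right), coloured by log2 CPM minus the mean of the 8 mice. Control IgG mouse 1 was highest for 8 of the 10 genes. Cyp2g1, Cyp2f2, Cyp2a4, Cyp2a5 and Cyp2b9 were also raised in anti-IL-17A/F mice 3 and 4 relative to most mice.

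Cyp2f2 (chr7:27119955-27133660), known in mice for activating naphthalene in airway cells, varied 12.9-fold between mice. Its level was 22.7, 55.3, 149 and 151 CPM in mice 1 to 4 given anti-IL-17A/F, against 294, 40.1, 70.2 and 41.1 CPM in mice 1 to 4 given control IgG. Control IgG mouse 1 stood far above the others, anti-IL-17A/F mice 3 and 4 were next, and anti-IL-17A/F mouse 1 was lowest. The log2 fold change was -0.24 ± 0.76 (SE, adjusted p = 0.987, edgeR), and it was 0.91 without control IgG mouse 1. The annotated gene Gm15883 on the opposite strand covers 13.5% of the Cyp2f2 exon sequence, and whether reads were counted by strand is unknown here, so its reads may not all be from Cyp2f2. Markers of the hair follicle bulb and inner root sheath (9 of 10 in the table, all 9 higher in anti-IL-17A/F mice, none called and none at 0) also varied widely. Their sum was 57.9, 79.4, 168 and 273 CPM with anti-IL-17A/F, against 155, 88.9, 161 and 68.5 CPM with control IgG, and their part in the Cyp2f2 values was not tested.

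Cyp2a4 and Cyp2a5, close relatives whose products hydroxylate steroids and coumarin, showed the same order of mice at the top. Cyp2a4 had 2.56, 3.28, 21.9 and 13.9 CPM in mice 1 to 4 given anti-IL-17A/F, against 30.3, 1.87, 5.02 and 3.81 CPM in mice 1 to 4 given control IgG. Cyp2a5 had 2.92, 4.25, 12.2 and 5.73 CPM with anti-IL-17A/F, against 18.4, 2.16, 3.73 and 3.68 CPM with control IgG. For both, control IgG mouse 1 was highest and anti-IL-17A/F mouse 3 second, and the span from lowest to highest mouse was 16.2-fold for Cyp2a4 and 8.52-fold for Cyp2a5. The log2 fold changes were 0.025 ± 0.93 for Cyp2a4 and -0.15 ± 0.69 for Cyp2a5 (SE), and that of Cyp2a4 was 1.55 when control IgG mouse 1 was left out and -0.63 when anti-IL-17A/F mouse 3 was. Part of their sequence is shared. Of the 50-base stretches in their transcripts, 38.8% of those of Cyp2a4 and 37.0% of those of Cyp2a5 also occur in another gene, mostly each other, and reads from shared stretches were not counted, so both levels are underestimates. Their promoters are near copies too: in the 250 bases before each start (RefSeq, GRCm38.p6, plus strand, chr7:26306942-26307191 and chr7:26835089-26835338), all but 4 compared bases are identical at a shift of 1 base (98.4%). They are shown because the genes varied together between mice, and the part of the promoters in this was not tested. No letter is marked:
Cyp2a4: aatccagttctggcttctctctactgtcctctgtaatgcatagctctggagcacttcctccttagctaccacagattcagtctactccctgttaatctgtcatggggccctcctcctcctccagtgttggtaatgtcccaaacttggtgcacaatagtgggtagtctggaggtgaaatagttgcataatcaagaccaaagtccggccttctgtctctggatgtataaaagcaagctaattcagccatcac
Cyp2a5: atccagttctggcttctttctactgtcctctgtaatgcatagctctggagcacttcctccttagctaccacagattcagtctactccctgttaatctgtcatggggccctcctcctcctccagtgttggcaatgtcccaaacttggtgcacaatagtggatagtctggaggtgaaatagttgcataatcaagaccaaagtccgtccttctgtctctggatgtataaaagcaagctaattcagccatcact

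The Cyp2b genes of the same cluster divided into a pair of abundant genes and 2 tested genes of low level. Cyp2b19, a keratinocyte enzyme of the mouse that forms epoxides of arachidonic acid, had 140.0, 199.6, 126 and 137 CPM with anti-IL-17A/F, against 149.8, 222, 121 and 127 CPM with control IgG. Control IgG mouse 2 and anti-IL-17A/F mouse 2 were highest, which is not the order of Cyp2f2. Cyp2b10, best known as the phenobarbital-induced gene of liver, had 70.6, 72.5, 73.2 and 48.8 CPM with anti-IL-17A/F, against 83.8, 61.7, 62.4 and 74.6 CPM with control IgG, with anti-IL-17A/F mouse 4 apart from the rest at the low end. The log2 fold changes were -0.040 ± 0.21 for Cyp2b19 and -0.092 ± 0.14 for Cyp2b10 (SE). Cyp2b9 and Cyp2b23 were at 2.24 CPM or less in every mouse and were again highest in control IgG mouse 1, with log2 fold changes of -0.33 and -0.63, neither called. Cyp2t4, at 0.697 to 1.07 CPM in anti-IL-17A/F mice and 0.753 to 1.35 CPM in control IgG mice, was not highest in that mouse.

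The Cyp2j genes on chromosome 4, a family of arachidonic acid epoxygenases, held 6.61% of the P450 level per kilobase. Cyp2j6 was among the steadiest of the abundant P450 genes, with 129.5, 129, 142 and 116 CPM with anti-IL-17A/F, against 137, 144, 126 and 131 CPM with control IgG, and its highest mouse was only 1.24 times its lowest. Cyp2j12 was 1 of the 2 P450 genes with an unadjusted p below 0.05. It had 27.4, 29.01, 30.1 and 33.6 CPM with anti-IL-17A/F, against 41.2, 51.9, 31.2 and 31.6 CPM with control IgG, so that control IgG mice 1 and 2 stood above the other 6 mice, which lay between 27.4 and 33.6 CPM. Its log2 fold change was -0.38 ± 0.16 (SE, unadjusted p = 0.0411, adjusted p = 0.984, edgeR), and -0.21 without control IgG mouse 2. These were the same mice in which the sebocyte marker sum was highest, and the part of sebocytes in this difference was not tested. Cyp2j8 had 13.6, 18.8, 21.2 and 17.96 CPM with anti-IL-17A/F, against 30.5, 22.7, 16.8 and 15.7 CPM with control IgG, highest in control IgG mouse 1, and a log2 fold change of -0.26 ± 0.22, which was -0.040 without that mouse. Cyp2j9 differed by 0.045, and Cyp2j13, at no more than 0.283 CPM in any mouse, by 0.79 ± 0.48.

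Other family 2 genes were scarce. Cyp2w1, an enzyme known from embryos and tumors, had 13.2, 13.04, 12.6 and 19.97 CPM with anti-IL-17A/F, against 10.5, 15.5, 17.6 and 16.2 CPM with control IgG, and anti-IL-17A/F mouse 4 was highest. Cyp2d22 had 6.94, 8.09, 3.98 and 4.86 CPM with anti-IL-17A/F, against 6.18, 4.34, 4.32 and 4.40 CPM with control IgG, and its log2 fold change was 0.31 ± 0.23 (SE). Cyp2u1, whose enzyme hydroxylates long-chain fatty acids, lay at 0.329 to 0.674 CPM in anti-IL-17A/F mice and 0.317 to 0.694 CPM in control IgG mice, and 10.5% of its exon sequence is covered by a gene on the opposite strand. The Cyp2c subfamily was close to absent: 13 of its 15 genes had no count, and the other 2, Cyp2c23 and Cyp2c69, had 3 and 2 counts over all mice. Of the 9 Cyp2d genes, 5 had no count. Cyp2e1, the ethanol-oxidising enzyme of liver, had 3 counts in all anti-IL-17A/F mice and 3 in all control IgG mice.

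**Figure D3:**
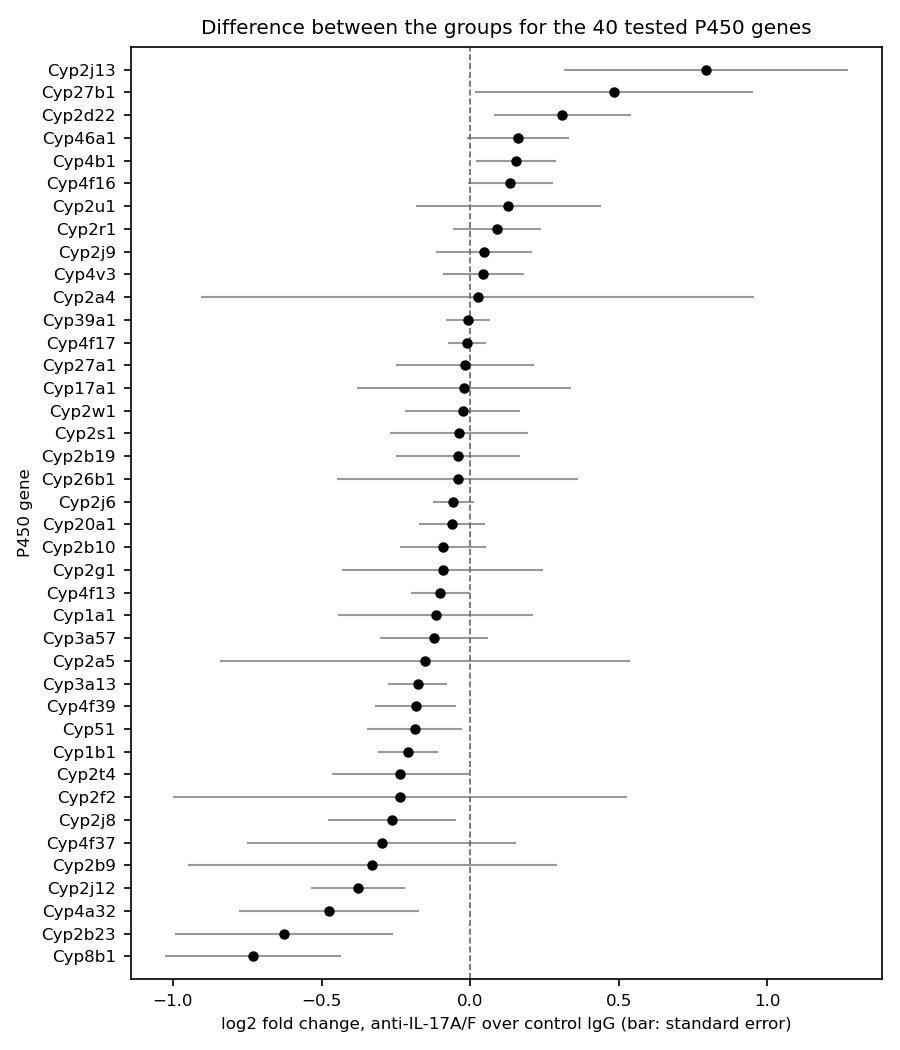
Log2 fold change (anti-IL-17A/F over control IgG) of the 40 tested P450 genes with its standard error (bars), ordered by fold change, with no difference marked by the dashed line. Values ran between -0.73 (Cyp8b1) and 0.79 (Cyp2j13), 29 lay below 0, and none was called.

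Cyp51 is the only P450 enzyme of the cholesterol synthesis pathway, and its highest and lowest mice were also those of most other genes of the pathway. Cyp51 (chr5:4080674-4104697) had 197, 239.8, 266 and 282 CPM in mice 1 to 4 given anti-IL-17A/F, against 303, 352, 246 and 218 CPM in mice 1 to 4 given control IgG. Control IgG mouse 2 was highest and anti-IL-17A/F mouse 1 lowest, and the groups overlapped. The means were 246 ± 37.2 CPM in anti-IL-17A/F mice and 279.8 ± 59.8 CPM in control IgG mice (SD, n = 4 each), a log2 fold change of -0.19 ± 0.16 (SE, adjusted p = 0.984, edgeR), and it was -0.054 without control IgG mouse 2. The gene Akap9 on the opposite strand covers 3.76% of the Cyp51 exon sequence. Of 21 other genes of cholesterol synthesis and its control, all 21 were tested, 2 were higher and 19 lower in anti-IL-17A/F mice, with a median of -0.10, and none was called. Of these 21, 18 were highest in control IgG mouse 2, as Cyp51 was, and 12 were lowest in anti-IL-17A/F mouse 1. Lss, which closes the sterol rings, differed by -0.30 ± 0.15, and Hmgcs1, an early enzyme of the pathway, by -0.21 ± 0.11. The sebocyte marker sum was highest in the same mouse, at 15744 CPM, and lowest in anti-IL-17A/F mouse 1, at 7502 CPM, and its part in these values was not tested.

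Of the P450 genes that act on oxysterols and bile acids, Cyp39a1, Cyp27a1, Cyp46a1 and Cyp8b1 passed the filter. Cyp7a1, the rate-limiting enzyme of bile acid synthesis in liver, had no count. Cyp39a1, which hydroxylates an oxysterol made in brain, was among the steadiest, with 66.7, 63.1, 72.3 and 62.9 CPM with anti-IL-17A/F, against 58.6, 65.1, 70.9 and 71.9 CPM with control IgG and a log2 fold change of -0.0085 ± 0.075. Cyp27a1, the mitochondrial sterol hydroxylase, had 50.3, 54, 32.1 and 24.9 CPM with anti-IL-17A/F, against 42.3, 35.5, 36.6 and 48.8 CPM with control IgG. The 2 highest and the 2 lowest mice for Cyp27a1 were all anti-IL-17A/F mice, and the log2 fold change was -0.018 ± 0.23. Cyp46a1, the cholesterol hydroxylase of neurons, lay at 1.75 to 2.81 CPM in anti-IL-17A/F mice and 1.77 to 2.08 CPM in control IgG mice. Cyp8b1, which sets the ratio of bile acids in liver, had the smallest unadjusted p of the P450 genes at a very low level. It had 0.905, 0.465, 0.432 and 0.426 CPM with anti-IL-17A/F, against 1.05, 0.867, 0.669 and 1.13 CPM with control IgG, so that 3 of the 4 anti-IL-17A/F mice lay below all control IgG mice and anti-IL-17A/F mouse 1 lay among them. Its log2 fold change was -0.73 ± 0.30 (SE, unadjusted p = 0.0359, adjusted p = 0.984, edgeR). Cyp7b1, the oxysterol hydroxylase, did not pass the filter, with 37 counts in all anti-IL-17A/F mice and 19 in all control IgG mice.

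Of the 6 steroid hormone genes only Cyp17a1, the hydroxylase and lyase that leads to androgens, was expressed at a level that could be tested. Cyp17a1 (chr19:46667165-46673000) had 80.1, 109.8, 153 and 163 CPM in mice 1 to 4 given anti-IL-17A/F, against 239.6, 91.9, 95.7 and 84.9 CPM in mice 1 to 4 given control IgG. Control IgG mouse 1 was highest, anti-IL-17A/F mice 4 and 3 followed, and the lowest was anti-IL-17A/F mouse 1. This is the order of mice seen at the top for Cyp2f2 on another chromosome. The means were 126 ± 38.4 CPM in anti-IL-17A/F mice and 128 ± 74.5 CPM in control IgG mice (SD, n = 4 each), a log2 fold change of -0.020 ± 0.36 (SE), and 0.48 without control IgG mouse 1. The other P450 genes of this group were nearly undetected. Steroid enzymes that are not P450 enzymes were not listed for this pathway. Cyp11a1, which starts steroid synthesis by cutting the cholesterol side chain, had 1 count in all anti-IL-17A/F mice and 1 in all control IgG mice. Cyp21a1 had 11 counts in all anti-IL-17A/F mice and 2 in all control IgG mice, and Cyp11b1 had 10 in anti-IL-17A/F mice and 15 in control IgG mice. Cyp11b2 and Cyp19a1, the aromatase, had none.

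The Cyp1 family and Cyp2s1 are classic targets of the aryl hydrocarbon receptor, a sensor of pollutants and tryptophan products. Cyp1b1 was the steadier of the Cyp1 genes, with 88.1, 92.5, 79.04 and 90.8 CPM with anti-IL-17A/F, against 113, 94.9, 83.4 and 114 CPM with control IgG, and a log2 fold change of -0.21 ± 0.10 (SE, unadjusted p = 0.0704, adjusted p = 0.984, edgeR). Control IgG mice 1 and 4 were the highest. Cyp1a1 had 18.1, 25.9, 29.8 and 31.1 CPM with anti-IL-17A/F, against 50.3, 26.8, 16.9 and 19.7 CPM with control IgG. Cyp2s1, an epithelial enzyme of skin and airway, had 33.6, 42.1, 40.9 and 40.4 CPM with anti-IL-17A/F, against 64.9, 29.7, 32.9 and 33.6 CPM with control IgG. The gene Gm26707 on the opposite strand covers 5.27% of the Cyp2s1 exon sequence. Cyp1a1 and Cyp2s1 were highest in control IgG mouse 1, and the other 7 mice lay between 16.9 and 31.1 CPM for Cyp1a1 and between 29.7 and 42.1 CPM for Cyp2s1. The log2 fold changes were -0.12 ± 0.33 for Cyp1a1 and -0.037 ± 0.23 for Cyp2s1, and without control IgG mouse 1 they were 0.31 for Cyp1a1 and 0.29 for Cyp2s1. Cyp1a2 had 1 count, in a control IgG mouse.

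The core of the dioxin response element bound by the receptor with its partner reads GCGTG, searched on both strands (CACGC on the other) in the 250 bases before each gene's start. It occurs in 30.9% of the 27025 genes with such a window, and in 13 of the 34 tested P450 genes with one. Cyp1a1 has 1 match, beginning 54 bases before its start, Cyp1b1 has 1, beginning 76 bases before, and Cyp2s1 has none in this window. Sequence further upstream was not searched, and whether the receptor binds these matches was not tested. The windows are printed 5′ to 3′ on the strand of the gene with the motif in capitals (RefSeq, GRCm38.p6). They are chr9:57697363-57697612 (plus strand), chr17:79715062-79715311 (minus strand) and chr7:25816526-25816775 (minus strand). These 3 are shown as the tested genes among the Cyp1 family and Cyp2s1, and because Cyp1a1 and Cyp2s1 had the same highest mouse:
Cyp1a1: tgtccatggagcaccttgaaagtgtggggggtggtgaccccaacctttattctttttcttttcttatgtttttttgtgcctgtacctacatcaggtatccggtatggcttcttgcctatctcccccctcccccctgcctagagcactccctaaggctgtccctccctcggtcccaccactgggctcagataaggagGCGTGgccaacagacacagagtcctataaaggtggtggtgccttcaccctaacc
Cyp1b1: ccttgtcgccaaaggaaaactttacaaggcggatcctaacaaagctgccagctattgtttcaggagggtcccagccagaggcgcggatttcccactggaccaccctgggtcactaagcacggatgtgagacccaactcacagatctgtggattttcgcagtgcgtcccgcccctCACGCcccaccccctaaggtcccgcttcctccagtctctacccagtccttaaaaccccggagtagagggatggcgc
Cyp2s1: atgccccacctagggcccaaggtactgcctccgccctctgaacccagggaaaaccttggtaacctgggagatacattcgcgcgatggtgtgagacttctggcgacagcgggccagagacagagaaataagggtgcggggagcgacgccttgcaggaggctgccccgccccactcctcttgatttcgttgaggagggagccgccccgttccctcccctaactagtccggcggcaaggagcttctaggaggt
Of 10 other genes of this pathway, all tested, 1 was higher and 9 were lower, with a median log2 fold change of -0.056 and none called. Ahr itself, the receptor, had 172, 196, 147 and 143 CPM with anti-IL-17A/F, against 144, 167, 185 and 196 CPM with control IgG, a log2 fold change of -0.074 ± 0.12. Tiparp, a repressor that the receptor induces, had 51.4, 44.8, 69.3 and 58.6 CPM with anti-IL-17A/F, against 36.8, 55.4, 117 and 71.6 CPM with control IgG, highest in control IgG mouse 3 and lowest in control IgG mouse 1, where Cyp1a1 was highest. The conjugating enzymes Ugt1a6a and Ugt1a7c, which share exons so that the same reads were counted for both, differed by -0.24 ± 0.17 and -0.25 ± 0.17. Both are among the 9 lower genes, which therefore do not hold 9 separate measurements.

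Retinoic acid is broken down by the Cyp26 enzymes, and of these only Cyp26b1 was measurable. Cyp26b1 (chr6:84571414-84593908) had 16, 24.6, 9.67 and 15 CPM in mice 1 to 4 given anti-IL-17A/F, against 21.4, 5.95, 15.7 and 24.1 CPM in mice 1 to 4 given control IgG, a 4.13-fold span. The highest were anti-IL-17A/F mouse 2 and control IgG mouse 4 and the lowest was control IgG mouse 2, so that both groups covered most of the range. The log2 fold change was -0.042 ± 0.41 (SE, adjusted p = 0.995, edgeR). Cyp26a1 had 2 counts in all anti-IL-17A/F mice and 3 in all control IgG mice, and Cyp26c1 had 1 in anti-IL-17A/F mice and 4 in control IgG mice. Of 16 other retinoid genes, all tested, 9 were higher and 7 lower, with a median of 0.0074 and none called. Crabp2, which carries retinoic acid to its receptors, had 74.7, 68.8, 65.2 and 76.05 CPM with anti-IL-17A/F, against 64.5, 61.1, 62.05 and 65.1 CPM with control IgG, and the groups did not overlap. It differed by 0.17 ± 0.056 (SE, unadjusted p = 0.0135, adjusted p = 0.984, edgeR). The retinol dehydrogenases Sdr16c5 and Dhrs9 differed by -0.28 ± 0.14 and 0.27 ± 0.13.

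The vitamin D enzymes were scarce and were the only role group in which each tested gene was higher in anti-IL-17A/F mice (2 of 2, neither called). Cyp27b1, which makes the active hormone in keratinocytes, had 2.32, 3.00, 4.79 and 7.76 CPM with anti-IL-17A/F, against 6.18, 2.12, 2.56 and 1.94 CPM with control IgG. Anti-IL-17A/F mice 4 and 3 and control IgG mouse 1 stood above the other 5 mice. Its log2 fold change was 0.48 ± 0.47 (SE). It was 0.076 when anti-IL-17A/F mouse 4 was left out and 1.02 when control IgG mouse 1 was. Cyp2r1, the first hydroxylase of the pathway, lay at 2.92 to 3.74 CPM in anti-IL-17A/F mice and 2.58 to 3.55 CPM in control IgG mice and differed by 0.090 ± 0.15. Cyp24a1, which degrades the hormone, had 3 counts in all anti-IL-17A/F mice and 0 in all control IgG mice, a difference not detectable at this depth. Of 9 tested nuclear receptor genes, 3 were higher and 6 lower, with none called. Nr3c1, the glucocorticoid receptor, had 290.1, 306, 273 and 262 CPM with anti-IL-17A/F, against 241, 236, 259 and 266 CPM with control IgG and differed by 0.17 ± 0.064 (SE, unadjusted p = 0.0240, adjusted p = 0.984). Ppara and Pparg, receptors for fatty acids, differed by -0.16 ± 0.094 and -0.24 ± 0.19.

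Family 4 enzymes hydroxylate the end of fatty acid chains. The most abundant per kilobase was Cyp4f39, the mouse counterpart of the human ichthyosis gene CYP4F22, which acts on the very long chains used for acylceramides of the barrier. Cyp4f39 (chr17:32452697-32493320) had 85.1, 94.1, 92.4 and 95.7 CPM in mice 1 to 4 given anti-IL-17A/F, against 116, 130.4, 87.7 and 82.97 CPM in mice 1 to 4 given control IgG. The anti-IL-17A/F mice were close together, while control IgG mice 1 and 2 stood above all others and control IgG mice 3 and 4 lay among or below the anti-IL-17A/F mice. The log2 fold change was -0.18 ± 0.14 (SE, adjusted p = 0.984, edgeR), and it was -0.056 without control IgG mouse 2. The sebocyte marker sum was highest in the same 2 mice, and its part was not tested. Of 13 other acylceramide genes, all tested, 3 were higher and 10 lower, with a median of -0.088 and none called. Pnpla1, which joins linoleate to the ceramide, had 28.05, 32.8, 34.3 and 33.5 CPM with anti-IL-17A/F, against 43.2, 36.6, 35.9 and 33.9 CPM with control IgG and differed by -0.22 ± 0.090 (SE, unadjusted p = 0.0380, adjusted p = 0.984, edgeR). Slc27a4, a fatty acid transporter, differed by -0.33 ± 0.21 and the lipoxygenase Aloxe3 by -0.17 ± 0.082.

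Cyp4b1, which oxidises medium-chain fatty acids and plant toxins, had 66.2, 60.8, 50.7 and 44.1 CPM with anti-IL-17A/F, against 45.02, 46.98, 47.7 and 59.4 CPM with control IgG and a log2 fold change of 0.16 ± 0.13. The other Cyp4f genes of the chromosome 17 cluster were Cyp4f13, Cyp4f17, Cyp4f16 and Cyp4f37. Cyp4f17 varied least of all tested P450 genes, at 14.4 to 16.5 CPM in anti-IL-17A/F mice and 14.8 to 16.1 CPM in control IgG mice. Cyp4f37 had 3.52, 1.86, 2.75 and 1.53 CPM with anti-IL-17A/F, against 1.03, 2.06, 4.87 and 3.93 CPM with control IgG, but 19.7% of its 50-base stretches, like 17.4% of those of Cyp4f16, occur in another gene. Cyp4v3 had 12.05, 12.4, 9.54 and 9.91 CPM with anti-IL-17A/F, against 8.85, 10.3, 10.5 and 12.96 CPM with control IgG and differed by 0.045 ± 0.14, with 8.22% of its exon sequence shared with a gene on the same strand. In the Cyp4a subfamily Cyp4a32 alone was tested, below 1 CPM in every mouse, and 43.8% of its 50-base stretches occur elsewhere, mainly in Cyp4a10. Of 7 tested partners in eicosanoid metabolism, 2 were higher and 5 lower, with none called. Alox5, the lipoxygenase of leukotriene synthesis, had 7.94, 4.58, 6.32 and 4.76 CPM with anti-IL-17A/F, against 3.96, 4.95, 11.7 and 10.1 CPM with control IgG. It differed by -0.38 ± 0.35, and by -0.11 without control IgG mouse 3. The 6 Langerhans and dendritic cell markers (5 lower, 1 higher, none called and none at 0) summed to 369 to 451 CPM in anti-IL-17A/F mice, against 296 to 588 CPM in control IgG mice. The 1 higher gene, Epcam, made up a large part of the sum, averaging 206 CPM with anti-IL-17A/F and 178 CPM with control IgG. The sum of these 6 was highest in the same 3 mice as Alox5, at 451 CPM in anti-IL-17A/F mouse 1. It was 588 and 572 CPM in control IgG mice 3 and 4. The 8 macrophage markers (all 8 lower, none called and none at 0) also summed highest in these 3 mice. Their sum was 18.6 CPM in anti-IL-17A/F mouse 1 and 31.5 and 27.8 CPM in control IgG mice 3 and 4. The part of either sum in the Alox5 values was not tested. The epoxide hydrolases Ephx1 and Ephx2, which act on the products of epoxygenases, differed by 0.071 ± 0.079 and -0.10 ± 0.15.

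In family 3, the drug-metabolising family of liver and gut, Cyp3a13 and Cyp3a57 were tested. Cyp3a13 had 43.96, 44.1, 54.2 and 44.7 CPM with anti-IL-17A/F, against 49.4, 47.03, 53.3 and 61.7 CPM with control IgG, a log2 fold change of -0.18 ± 0.099 (SE, adjusted p = 0.984, edgeR), and Cyp3a57 differed by -0.12 ± 0.18. Cyp3a11, a main enzyme of mouse liver, had no count. Cyp20a1, for which no substrate is established, lay at 5.01 to 6.17 CPM in anti-IL-17A/F mice and 5.18 to 6.38 CPM in control IgG mice.

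Most P450 enzymes receive their electrons from the reductase Por. Por had 80.3, 109, 129 and 146 CPM in mice 1 to 4 given anti-IL-17A/F, against 187, 123, 105 and 103 CPM in mice 1 to 4 given control IgG. Control IgG mouse 1 was highest and anti-IL-17A/F mouse 1 lowest, as for Cyp2g1, Cyp2f2 and Cyp17a1. The log2 fold change was -0.16 ± 0.23 (SE, adjusted p = 0.984, edgeR), and it was 0.071 without control IgG mouse 1. Of 11 tested electron donors and partners, 2 were higher and 9 lower, with a median of -0.044 and none called. Cyb5b, a cytochrome of the mitochondrial outer membrane, differed by -0.20 ± 0.13 (-0.067 without control IgG mouse 2), Cyb5r3 by -0.12 ± 0.069 and Cyb5a by -0.086 ± 0.050. Ptgis and Tbxas1, which encode P450 enzymes under other names, did not pass the filter.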

How the data were processed

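Epidermal cells of 8 aged mice (4 anti-IL-17A/F, 4 control IgG) were profiled by stranded poly(A) RNA sequencing. Per the labels and the study's methods, the authors aligned single-end reads to mm10 with STAR 2.5.2b and counted them with featureCounts and its inbuilt annotation. Reads overlapping several genes were counted for each, and reads mapping to several places were not. The table was deposited by the authors as raw, unnormalized counts per Entrez gene. Whether reads were counted by strand is unknown here.

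The 16 columns are 2 sequencing runs of each mouse. They carry the same library identifier, the chi-square statistic per gene between them was 0.996 to 1.06 (12.1 to 41.4 for different mice of the same group), and they were summed. The labels number the libraries of a group 1 to 4 and say nothing more of the animals, so p-values measure the spread between these libraries. Symbols and coordinates came from the RefSeq table of GRCm38.p6 (25275 of 27179 rows matched, 93.0%) and exon lengths from GENCODE vM21 (94 of the 95 genes). Rows named as pseudogenes (4) or with a letter after the last number (5) were left out. RefSeq promoter windows were matched for 74 of the 95 genes; Cyp2g1, Cyp17a1, Cyp39a1 and Cyp4f17 had no entry.

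The groups were compared with edgeR 4.0.16 (R 4.3.3) by the quasi-likelihood test, two-sided, after TMM scaling and filterByExpr (minimum count 10, minimum total 15). Adjustment was by Benjamini-Hochberg over 16335 genes, and genes were called below 0.1. The study used this level together with a minimum shrunken fold change, which was not applied here. The study's tool, DESeq2 1.42.0, and limma-voom 3.58.1 were alternatives, as were other scaling, filters, a replicate block, each batch alone and leaving out each mouse. The study also used a batch covariate, which cannot enter once runs are summed. CPM use TMM-scaled totals. A cluster joins P450 genes less than 500000 bases apart. Totals of 42816157 to 53721153 counts make counting error small except for genes near the filter: among tested genes the lowest totals were 70 (Cyp2j13), 177 (Cyp4a32) and 192 (Cyp2u1), and among those left out the highest were 66 (Cyp3a25), 60 (Cyp2b13) and 56 (Cyp7b1).

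The P450 genes and companion lists were chosen with earlier results of these data known. Named were genes with an established role in skin (Cyp51, Cyp26a1, Cyp26b1, Cyp27a1, Cyp27b1, Cyp24a1, Cyp2r1, Cyp7b1, Cyp1a1, Cyp1b1, Cyp2s1, Cyp2b19, Cyp4f39, Cyp11a1, Cyp19a1), the 15 highest per kilobase, those with an unadjusted p below 0.05, and the highest of each subfamily with a tested gene. Of each companion list, up to 3 of smallest p were named, besides Por and Ahr; some genes this rule names are not reported here. Other genes are named to complete a count or subfamily.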

Additional observations from a re-analysis of the deposited data

Results flagged for a closer look

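Values of the named genes were compared within each group, and 11 stood apart from the other 3 mice of their group by Dixon's ratio, out of 110 sets of 4 mice, where chance flags about 1 in 20. No cause was weighed for them.

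In control IgG mouse 1, 6 P450 genes stood above the other control IgG mice: Cyp2f2 at 293.9 CPM (next highest 70.2 CPM), Cyp17a1 at 239.6 CPM (95.7 CPM), Cyp2s1 at 64.9 CPM (33.6 CPM), Cyp2a4 at 30.3 CPM (5.02 CPM), Cyp27b1 at 6.18 CPM (2.56 CPM) and Cyp2d22 at 6.18 CPM (4.40 CPM). Among anti-IL-17A/F mice, mouse 4 was apart for Cyp2b10 at 48.8 CPM (next lowest 70.6 CPM) and for Cyp2w1 at 19.97 CPM (next highest 13.2 CPM). Anti-IL-17A/F mouse 3 was apart for Cyp3a13 at 54.2 CPM (next highest 44.7 CPM) and for Ephx2 at 19.8 CPM (next lowest 24.5 CPM). Anti-IL-17A/F mouse 1 was apart for Cyp8b1 at 0.905 CPM (next highest 0.465 CPM).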

How the results depend on the processing

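No P450 gene was called under any alternative. DESeq2 called 9 genes in all, none a P450 gene. The number of P450 genes higher in anti-IL-17A/F mice was 23 of 67 without a filter on low counts, 18 by limma-voom and 17 with the replicate block. The number with an unadjusted p below 0.05 was 1 with a filter of 1 CPM in 4 mice, 1 by limma-voom and 0 in batch 1 alone. Leaving out each mouse gave 12 to 21 higher, 0 to 3 with an unadjusted p below 0.05, a median log2 fold change of -0.13 to 0.0024 and 40 to 42 genes tested. With the pseudogene rows also taken as members 41 were tested, and with the letter-suffixed rows, an alternative chosen after seeing the data, 40.

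Of the 428 other values of named genes outside those runs, 15 changed sign. With the replicate block these were Cyp2g1 0.0066, Cyp2f2 0.23, Cyp17a1 0.10, Cyp1a1 0.0022 and Cyp2s1 0.038. By limma-voom they were Cyp17a1 0.020, Cyp2b19 0.027, Cyp27a1 0.082, Cyp2s1 0.067 and Cyp26b1 0.090. In batch 2 alone they were Cyp17a1 0.0027, Cyp39a1 0.00059, Cyp2a4 -0.026, Cyp20a1 0.010 and Cyp2u1 -0.14. The replicate numbers are shared labels only: the correlations of same-numbered mice were -0.265, 0.250, 0.189 and -0.135, and the block changed no call.

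Leaving out 1 mouse turned 46 of 432 values of named genes, and the ranges were Cyp17a1 -0.17 to 0.48, Cyp1a1 -0.30 to 0.31, Cyp26b1 -0.32 to 0.18, Cyp27a1 -0.19 to 0.16, Cyp2a4 -0.63 to 1.55, Cyp2b10 -0.15 to 0.029, Cyp2b19 -0.21 to 0.19, Cyp2f2 -0.56 to 0.91, Cyp2g1 -0.28 to 0.32, Cyp2s1 -0.16 to 0.29, Cyp2u1 -0.040 to 0.40, Cyp2w1 -0.21 to 0.063, Cyp39a1 -0.062 to 0.030, Cyp46a1 -0.00090 to 0.24, Cyp4v3 -0.031 to 0.15, Ephx2 -0.22 to 0.0078, Por -0.29 to 0.071 and Tiparp -0.54 to 0.038. The cause of these changes was not tested. Depth limits genes near the filter.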
